A study of Hordeum vulgare with 6 samples.

Results

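The mitochondrion-encoded genes of barley (Hordeum vulgare, line Rolap) were taken as all rows of the expression table that carry the chromosome name Mt, which gave 32 of 39841 listed genes. They were chosen by position alone, whatever their level. The study compared shoots of plants under phosphate shortage with shoots of plants under sufficient phosphate. Low-Pi plants (Pi stands for inorganic phosphate) grew in a soil that held 8 mg P per kg and got no more, and control plants grew in the same soil after 60 mg P per kg had been added as phosphate. Both groups had 16 h of light at 22 °C, were harvested on day 23, and gave 3 libraries each.

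The table lists, per gene, 1 level pooled over libraries by the authors, the higher of the low-Pi and control means. It does not name the group that was higher, it holds no value per library, and the depth of the libraries is unknown. No level below therefore has an error or a test. Sums, shares and ratios over genes can mix low-Pi means with control means, so they need not hold for either group. The change of these genes between low-Pi and control was not analysed here, because the table gives it only as the fitted comparison of the authors. Levels are a normalised signal that corrects for gene length and library size. The file does not name its unit, and the column sums to less than TPM scaled over the listed genes would, so levels are compared only within the table.

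Mitochondria keep a small genome of their own. In plants it codes for core subunits of the respiratory chain and of the ATP synthase, for proteins that attach haem to cytochrome c, for part of the mitochondrial ribosome and for a few further proteins. Most proteins of the organelle come from nuclear genes and are imported. Stable plant mitochondrial mRNAs mostly lack a long poly(A) tail, and polyadenylation there marks RNA for decay, while the library kit used here selects poly(A) RNA. How far this selection set the levels below was not tested. In RNA of whole shoots, moreover, fewer cells or mitochondria and less RNA in each cannot be told apart.

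Among the 32 listed members, genes named for the respiratory chain and the ATP synthase carried nearly all of the summed level. Whether the listed rows cover all genes of the mitochondrial genome was not checked, so shares refer to these rows only. Of the 16 members that encode subunits of complexes I, III, IV and V, 13 were listed above 0, their median level was 1.24, and they held 93.6% of the level summed over all 32 members. The other 16 members are those named for cytochrome c maturation or ribosomal proteins, mttB and the rows without a gene name. They had a median of 0.0342, with 11 listed above 0, and held 6.44% of the sum. Over all members, 24 stood above 0 (75%), 17 reached 0.1 (53.1%), 11 reached 1 (34.4%), and atp1 was the only one above 10. Over all listed genes, 67.8% stood above 0, 54.3% reached 0.1, 36.0% reached 1 and 11.1% reached 10. The 5 highest members, atp1, atp6, atp8, cox3 and cob, together held 75.7% of the mitochondrial sum. An entry of 0 is not read as absence of the transcript, since members at 0 include genes that every plant cell uses, such as nad9.

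**Figure D1:**
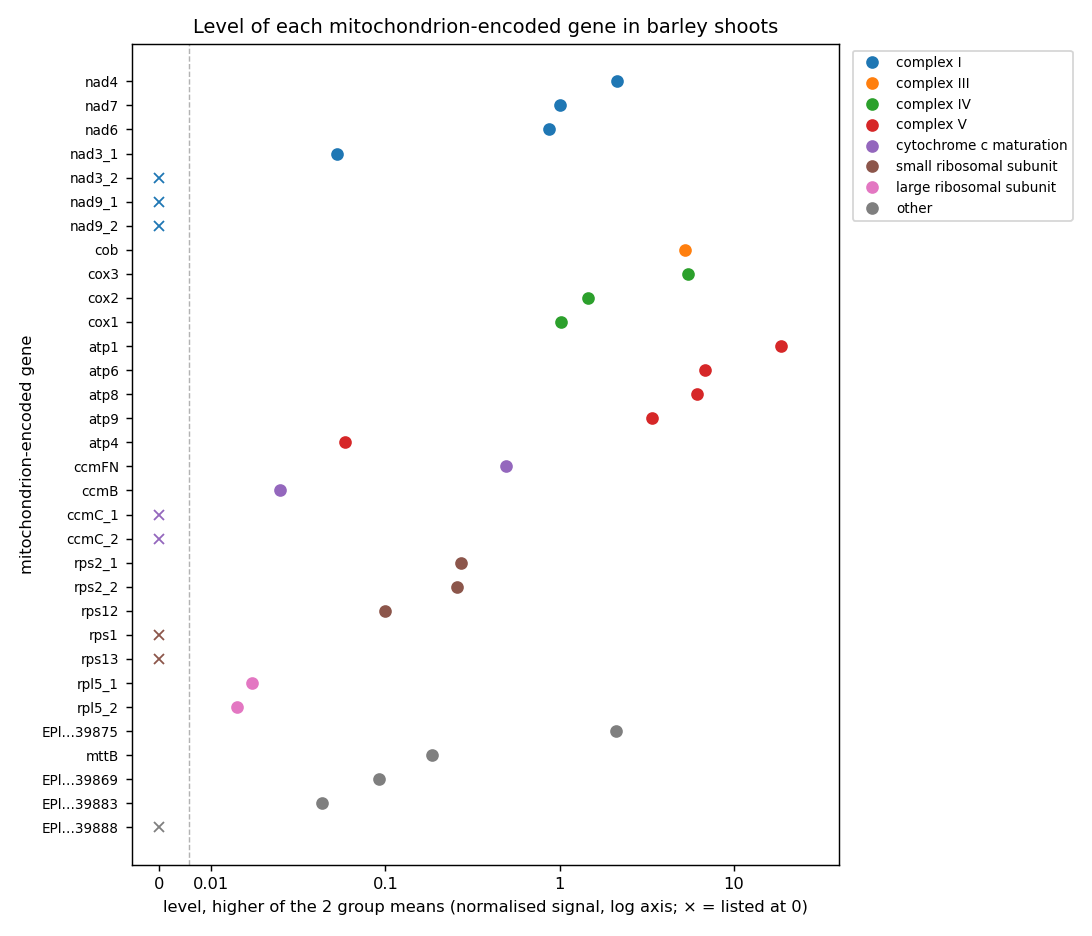
Level of each of the 32 mitochondrion-encoded genes (normalised signal, higher of the 2 group means, log axis), coloured by functional group, with crosses for genes listed at 0. Points are single pooled values without error. Genes of complexes III, IV and V lie between 1.02 and 18.8, apart from atp4 at 0.0587. Every gene with the prefix rps or rpl lies at or under 0.270.

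Complex V, the ATP synthase, was the strongest group, with all 5 members above 0, a median of 6.13 and 62.8% of the mitochondrial sum. The gene atp1 (Mt, 445965 to 447494, plus strand), which encodes the alpha subunit of the catalytic head, had a level of 18.8. This was 2.75-fold the level of the next member, and atp1 alone made up 33.5% of the mitochondrial sum. Set against nuclear genes, the level of atp1 was above that of 93.3% of them. The gene atp6 (101809 to 102927, plus strand), for the a subunit of the proton channel, had 6.82, and atp8 (109866 to 110336, minus strand), for a small membrane subunit, had 6.13. The level of atp9, the gene for the c subunit of the rotor ring, was 3.41 (447957 to 448199, plus strand). These 4 genes were all above 78% of the nuclear genes in level. The remaining gene of the complex, atp4 for the b subunit of the stator stalk (260403 to 260981, plus strand), stood far below them at 0.0587, and atp1 was 319-fold above it. Subunits of 1 complex thus differed widely in level. Across the members above 0 the range was 1332-fold, between atp1 and a copy of rpl5.

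Complexes III and IV followed. The only listed gene of complex III, cob for apocytochrome b (240852 to 242048, minus strand), had a level of 5.22. All 3 genes of complex IV, the cytochrome c oxidase that hands electrons to oxygen, were above 1. The level was 5.48 for cox3 (214387 to 215184, plus strand), 1.46 for cox2 (317113 to 319119, minus strand) and 1.02 for cox1 (49545 to 51125, plus strand). The gene cox1 carries the catalytic centre of the enzyme and cox3 a structural subunit, and the level of cox3 was 5.37-fold that of cox1. The group median was 1.46 and its share of the mitochondrial sum 14.2%.

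Complex I, the NADH dehydrogenase at the entry of the chain, had 7 rows, of which 4 were above 0. The rows are named nad3, nad4, nad6, nad7 and nad9, and no other nad name is listed. The gene nad4 (353158 to 360772, plus strand), for a proton-pumping membrane subunit, led with a level of 2.14. It was followed by nad7 (392273 to 398279, minus strand) with 1.003 and nad6 (413200 to 414138, plus strand) with 0.875. The gene nad7 encodes a subunit of the peripheral arm and nad6 a membrane subunit. These 3 genes are listed once, and their levels lay within 2.45-fold of each other. The other genes of the group, nad3 and nad9, are each listed as a pair of copies. The copies of nad3 had 0.0530 and 0, and both copies of nad9, for a subunit of the peripheral arm, were listed at 0. The median of complex I was therefore 0.0530 over its rows and 0.939 over the 4 rows above 0. The spans of nad4 and nad7 in the table are 7615 and 6007 bp and include introns, whose place the table does not give.

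The genes for cytochrome c maturation, a bacterial type of pathway for haem attachment, were low. The haem lyase gene ccmFN (492667 to 494436, plus strand) had a level of 0.495. It was 19.9-fold above ccmB (289188 to 289808, plus strand), a subunit of the transporter of this pathway, at 0.0248. Both listed copies of ccmC, a haem-handling protein, were at 0. The 4 rows had a median of 0.0124 and held 0.927% of the mitochondrial sum.

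None of the 7 rows with the ribosomal protein prefixes rps or rpl reached 1, and 3 reached 0.1. Rows without a gene name were not assigned to a function and are not counted here. The small subunit genes rps2 and rps12 had levels of 0.270 and 0.258 for the copies of rps2 and 0.1001 for rps12, whereas rps1 and rps13 were listed at 0. The large subunit was represented by rpl5, whose copies had 0.0171 and 0.0141, the lowest levels above 0 among all members. The median was 0.1001 over the 5 rows of the small subunit and 0.0156 over the 2 rows of the large one, and both together held 1.18% of the mitochondrial sum. No row of the mitochondrial chromosome had a name with the prefix mat, the usual start of maturase names.

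Of the 5 other members, mttB (440633 to 441448, plus strand), which encodes a membrane protein related to the TatC subunit of protein export in bacteria, had a level of 0.184. The 4 rows without a gene name ranged widely. EPlHVUG00000039875 (196402 to 199829, plus strand) had 2.11, close to nad4 and higher than cox1 and cox2. EPlHVUG00000039869 had 0.0923 and EPlHVUG00000039883 had 0.0435. EPlHVUG00000039888 was listed at 0 and shares 152 bp at its start with EPlHVUG00000039875 on the same strand, so reads in that stretch cannot be given to one or the other, and both values are uncertain.

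Several members appear as copies, which bears on how their levels can be read. In all, 5 genes (ccmC, nad3, nad9, rpl5 and rps2) have 2 rows each. Within each pair the annotated spans are equal, at 723 bp for ccmC, 357 bp for nad3, 573 bp for nad9 and rpl5, and 1689 bp for rps2. The copies of rpl5 and rps2 lie in the same arrangement at both places, with 1907 bp between the starts of rpl5 and rps2 and 1334 bp between the genes. Levels in the pairs were also near each other, with a ratio of 1.21 for rpl5 and 1.05 for rps2. For nad3, 1 copy was above 0 and the other at 0. How reads that fit both copies were counted is not given in the sources used here, so the levels of these 10 rows are uncertain. Of these 10 rows 5 were above 0, with a median of 0.00704 and none at 1. Among the 22 rows of genes listed once, 19 were above 0, with a median of 0.939 and 11 at 1 or more. Whether the copies as such lowered these levels was not tested.

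In the pairs of neighbouring genes given here, both on the same strand, the levels differed. The rows of nad3, rpl5 and rps2 are copies with uncertain levels. Only the pair of atp1 and atp9 has neither a copy nor an entry of 0. The pair atp1 and atp9 is separated by 462 bp, and the level of atp1 was 5.49-fold that of atp9. The gene rps12 follows the copy nad3_2 after 44 bp. It had 0.1001 while that copy was listed at 0. The gene rps1 lies 246 bp after ccmFN and was at 0, against 0.495 for ccmFN. In both copies of the rpl5 and rps2 arrangement the downstream gene rps2 had the higher level, by 15.8-fold and 18.3-fold.

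Longer members tended to stand higher. The 17 members with a span of at least 723 bp, the median span, had a median level of 1.003, with 15 above 0 and 9 at 1 or more. The 15 shorter ones had a median of 0.0171, with 9 above 0 and 2 at 1 or more. The exceptions among the short members were atp8 with a span of 471 bp and atp9 with 243 bp, the shortest of all members. Of the 8 members at 0, 6 were shorter than 723 bp and the remaining pair, the copies of ccmC, had exactly this span. Function and span are not separate here, because most ribosomal protein rows and most copies are short, so their parts in the level cannot be told apart. Of the 27 members on the plus strand 7 were at 1 or more, and of the 5 on the minus strand 4.

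**Figure D2:**
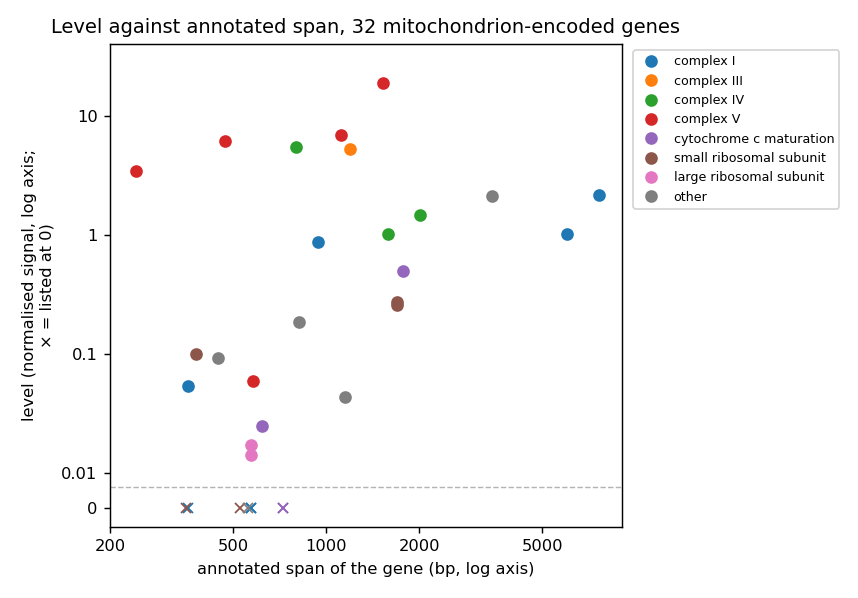
Level (normalised signal, log axis, crosses for genes listed at 0) against annotated span (bp, log axis) for the 32 mitochondrion-encoded genes, coloured by functional group. Every gene at 0 has a span of 723 bp or less, and atp9 with 243 bp and atp8 with 471 bp stand above the other short genes.

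Beside the rest of the table, mitochondrion-encoded genes were listed above 0 about as often as others. They reached 1 about as often as nuclear genes, but only 1 of 32 reached 10. The share above 0 was 75% for the 32 mitochondrial genes, against 65.3% for the 75 plastid genes and 67.8% for the 39734 nuclear genes. A level of at least 1 was reached by 34.4% of mitochondrial genes, 42.7% of plastid genes and 36.0% of nuclear genes. For a level of at least 10, the shares were 3.12% of mitochondrial genes, 21.3% of plastid genes and 11.1% of nuclear genes. The median level was 0.142 (quartiles 0.0106 and 1.62) for mitochondrial genes, against 0.626 (quartiles 0 and 4.99) for plastid genes and 0.189 (quartiles 0 and 2.61) for nuclear genes. The mitochondrial median was thus 0.753 times the nuclear and 0.227 times the plastid one. The range between the mitochondrial quartiles thus lay inside that of both other genomes. The genes of a genome are not replicates, so these shares and medians were not tested. Summed over genes, the mitochondrial level was 56.0, or 0.00951% of the sum of the table, against 2332 or 0.396% for the plastid. The plastid sum was 41.6-fold the mitochondrial one, and 16.9-fold without its highest gene psbA (level 1387), which encodes a core protein of photosystem II and marks the material as green tissue.

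**Figure D3:**
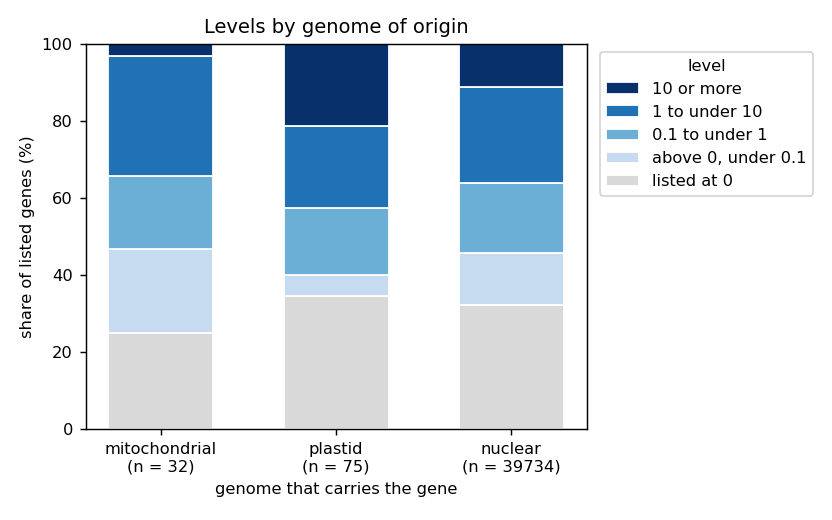
Share of listed genes (%) in 5 classes of level, for 32 mitochondrial, 75 plastid and 39734 nuclear genes. The class of 10 or more holds 3.12% of mitochondrial genes, against 21.3% of plastid and 11.1% of nuclear genes, while the share above 0 is 75% for mitochondrial, 65.3% for plastid and 67.8% for nuclear genes.

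Some subunits have relatives of like role in the plastid, where an ATP synthase and an NADH dehydrogenase-like complex sit in the thylakoid membrane. For 9 such pairs, put together by role after the levels had been seen, the mitochondrial level was the lower one in 8. Of these 8, the pairs of nad3 and nad9 rest on rows with copies, whose levels are uncertain, and nad9 on entries of 0. In the ATP synthases, the alpha subunit had 18.8 for mitochondrial atp1 and 44.1 for plastid atpA, and the a subunit 6.82 for atp6 and 27.3 for atpI. The c subunit had 3.41 for atp9 and 35.0 for atpH, and the b subunit 0.0587 for atp4 and 0.665 for atpF. In both organelles the alpha subunit gene was the highest of these 4 and the b subunit gene the lowest. In the dehydrogenases, levels were 2.14 for nad4 and 28.7 for ndhD, 0.875 for nad6 and 2.07 for ndhG, and 0.0530 for the summed copies of nad3 and 0.251 for ndhC. The genes nad9 and ndhJ had 0 and 12.9. The exception was nad7 with 1.003, against 0 for ndhH, whose span in the table covers several other plastid genes and whose value is therefore uncertain. The other plastid genes of these pairs were not checked for overlap, so their values may be uncertain as well. Genes with the prefix rps or rpl had a median of 0.0171 over 7 mitochondrial rows, of which 5 were above 0. Their median was 0 over 19 plastid rows, of which 9 were above 0. At the upper end the order was the other way round, with a highest level of 0.270 in the mitochondrial rows and 6.91 in the plastid rows. A level of 1 or more was reached by 0 of 7 mitochondrial and 5 of 19 plastid rows, and the median over rows above 0 was 0.1001 in the mitochondrial and 1.12 in the plastid rows.

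**Figure D4:**
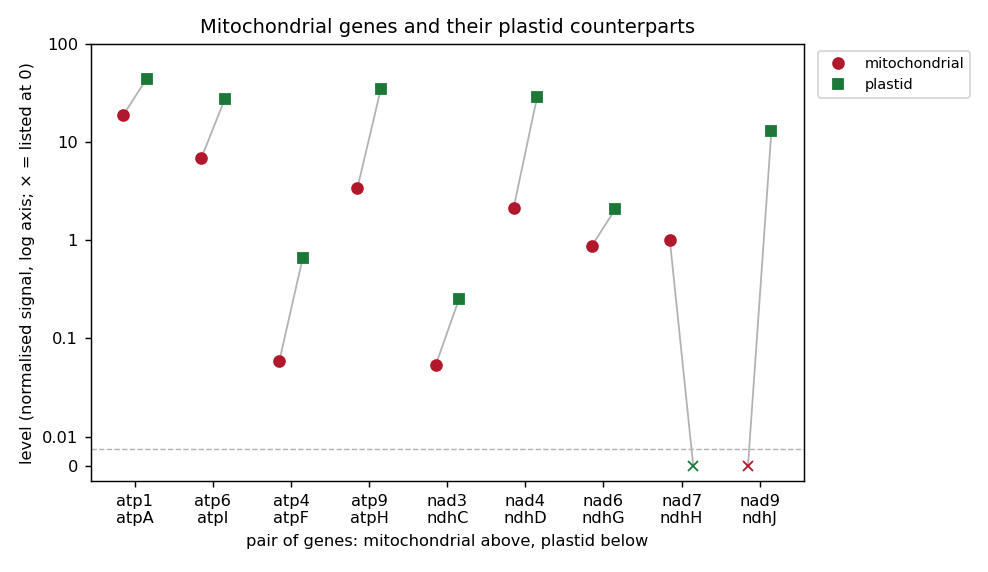
Levels (normalised signal, log axis, crosses for genes listed at 0) of 9 pairs of mitochondrial genes (circles) and plastid genes of like role (squares), with the copies of nad3 and nad9 summed. The mitochondrial level is the lower one in 8 pairs, and nad7 against ndhH is the exception.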

How the data were processed

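Shoot RNA of 3 low-Pi and 3 control samples was sequenced as 6 poly(A) libraries. Each took 1500 ng of total RNA, and reads were in pairs of 150 cycles. The methods state that this RNA was not treated with DNase. Whether leftover DNA added to the levels, low ones among them, was not tested. As the methods of the study state, the authors aligned quality-trimmed reads in CLC Genomics Workbench to release 42 of the Ensembl Plants gene set (barley assembly IBSC_v2) and computed TPM. The software version, the use of strand in counting and the handling of reads that fit more than 1 place are not stated in the methods or labels. The authors deposited a single table of their comparison. Its level column is a normalised signal, the higher of the 2 group means, and was used as deposited. It sums to 589470 over the listed genes, below the total that TPM scaled over these genes alone would have in any library. The column is therefore not TPM over the listed genes. Whether it is RPKM, which the methods also define, or TPM scaled over further sequences is not stated. A further 5 columns hold the fold changes and p-values of the authors' own comparison and were not used. No column holds a value per library, so depth and replicate error are unknown.

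Members were all rows of chromosome Mt, named in full, and grouped by name prefix. Coordinates are those of the table, counting from 1. Medians, shares and ratios were computed in Python 3.11.15 with pandas 2.3.3, without a filter on low levels. The scripts were tested on made-up tables. Members and groups were chosen with earlier results of these data known. Alternatives were floors of 0.1 and 1 on the level, pseudocounts of 1 and 0.1, and leaving out rows at 0, overlapping rows or the highest genes. No protein or DNA sequences were used here.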

Additional observations from a re-analysis of the deposited data

How the results depend on the processing

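Of 29 alternative values, 16 stayed within 1.5 times the main value, and 13 moved further. The 16 include values that the setting could not change, such as leaving out rows at 0 in groups that have none. Raising the floor from above 0 to 1 lowered the number of members counted as detected from 24 to 11. The median level of all members, 0.142, was 0.685 over members above 0, 0.801 as a geometric mean with a pseudocount of 1 and 0.373 with one of 0.1, and 0.495 with copies of a gene summed and counted once, an alternative chosen after seeing the data. Leaving out atp1 lowered the mitochondrial share of the table sum from 0.00951% to 0.00633%. The median of complex I, 0.0530 over all rows, was 0.939 over rows above 0 and 0.875 with copies counted once. For cytochrome c maturation, 0.0124 over all rows, these were 0.260 and 0.0248. For the small ribosomal subunit, 0.1001 over all rows, they were 0.258 and 0.0500, and for the large one, 0.0156 over all rows, counting copies once gave 0.0312. These moves follow from how each summary is built. The medians of complexes III, IV and V could not move under these settings, since these groups have no row at 0, no overlapping row and no copy. No paired analysis was possible because the table has no value per library, and for the same reason leaving out single libraries was not run.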
